A study of Mus musculus with 6 samples.

Results

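The kynurenine pathway, the route by which cells turn tryptophan into quinolinate and from there into NAD, was followed through 8 genes, Ido1, Tdo2, Afmid, Kmo, Kynu, Haao, Acmsd and Qprt. The genes were taken by symbol from a table of read counts, and all 8 were found among its 40428 features. The table holds RNA sequencing of subcutaneous white adipose tissue from 3 ANKO mice and 3 control mice of the C57BL/6J background, all fed regular chow at room temperature. ANKO mice lacked Nampt, the enzyme that recycles nicotinamide into NAD, in adipocytes, through a Cre recombinase under the adiponectin promoter acting on floxed Nampt. Controls carried the same floxed alleles and are labelled flox/flox, and the sources used here do not give the age of the mice. The whole depot was sequenced, so cells other than adipocytes, which keep Nampt, contribute to every value, and fewer cells of a type and less RNA per cell cannot be told apart.

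In this pathway Ido1 and Tdo2 open the indole ring of tryptophan, and the formamidase Afmid releases kynurenine. Kmo hydroxylates kynurenine, Kynu cleaves the product and Haao opens its ring, giving a short-lived intermediate. Qprt turns the quinolinate that forms from this intermediate into a NAD precursor, whereas Acmsd draws the intermediate away from NAD. The whole route is best known from liver, with kidney as a further site of its later steps, while Ido1, Kmo and Kynu are also known from immune cells. Nampt salvage is regarded as the main source of NAD in fat, and the comparison shows what the transcripts of the tryptophan route did when that source was cut in adipocytes.

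Library totals were 19748962 to 23860596 counts. Nampt fell in ANKO tissue, at 48.6, 50.2 and 47.0 CPM (read counts scaled to library size) in ANKO 1 to 3, against 83.6, 93.0 and 87.0 CPM in control 1 to 3 (log2 fold change -0.85, adjusted p = 0.00416). The 10 adipocyte markers were present in every library, with summed levels of 5543 to 9246 CPM in ANKO and 9268 to 15167 CPM in control tissue, and 2 of the 10 fell, Adipoq and Plin1. Some libraries stood apart in markers of other tissues. Summed skeletal muscle markers were 18768, 3252 and 101 CPM in ANKO 1 to 3 and 6224, 1564 and 9772 CPM in control 1 to 3. Summed mammary epithelium markers were 842, 693 and 524 CPM in ANKO 1 to 3 and 693, 1271 and 173 CPM in control 1 to 3.

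None of the 8 genes of the pathway rose or fell in ANKO tissue in the edgeR quasi-likelihood test. Across all 19272 features tested, 1.59% passed at an adjusted p under 0.05, 94 higher and 212 lower. The called features made up 0.488% of those tested in the higher and 1.10% in the lower direction. None of the 8 had an unadjusted p under 0.05, against 12.9% of all features, and DESeq2 and limma-voom likewise called none and found none at that level. In no member did the ANKO and control values separate, against 19.4% of all features whose groups did not overlap, 9.19% with ANKO above and 10.2% with ANKO below. The median log2 fold change of the 8 genes was -0.12, with 3 positive and 5 negative, beside a median of 0.000676 over all features tested. For 6 of the 8 genes, all except Ido1 and Acmsd, the 95% interval of the fold change lay within a 2-fold change in either direction.

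**Figure D1:**
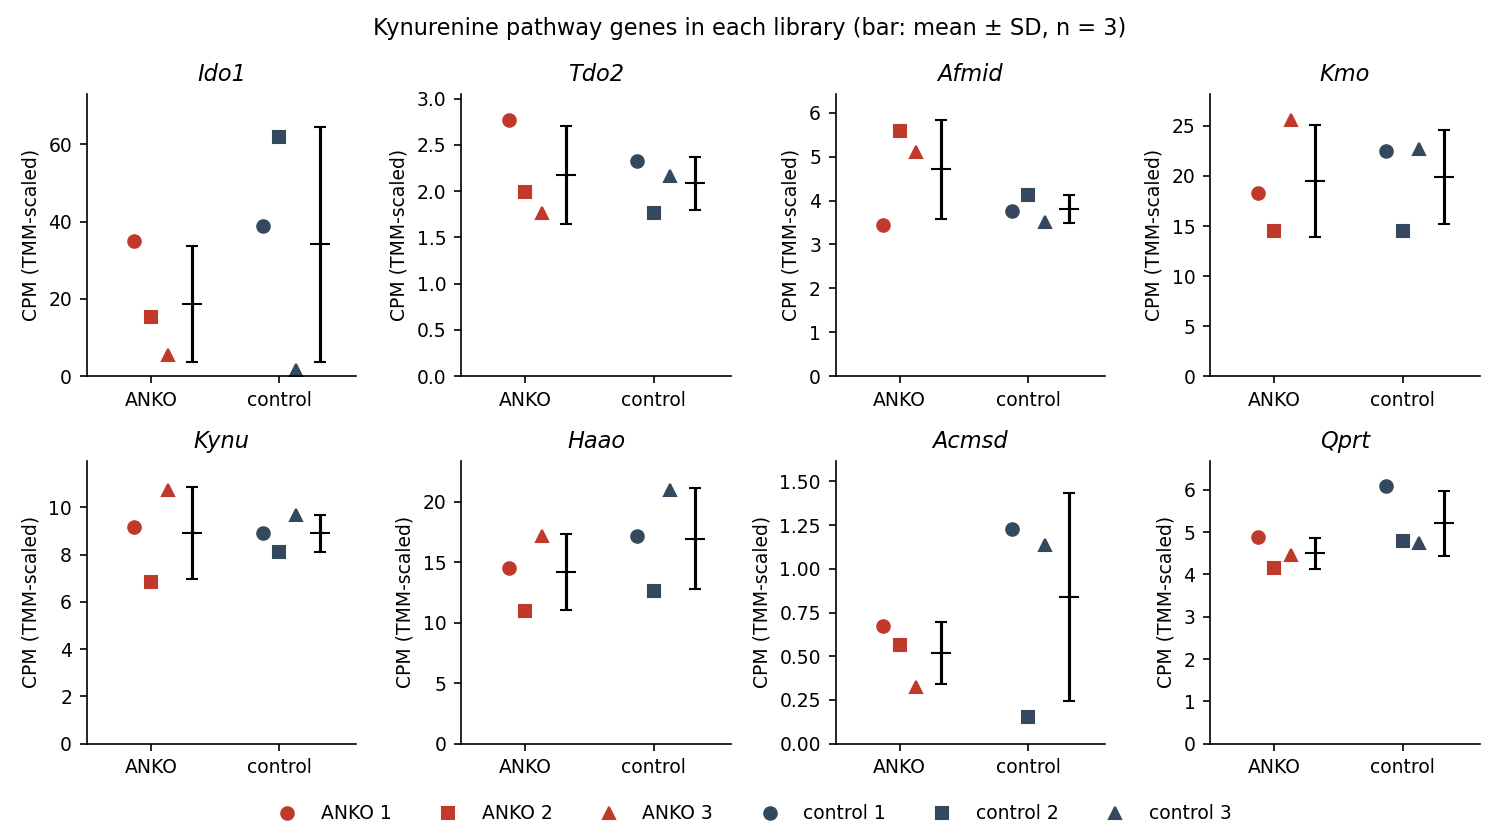
Normalised level of each kynurenine pathway gene in CPM (vertical axis, from 0) in the 3 ANKO and 3 control libraries, with each point a library and the bar the mean ± SD. The ANKO and control points overlap in every panel, and Ido1 spreads from 1.49 to 61.9 CPM among the controls alone.

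Ido1, which encodes the interferon-inducible tryptophan-opening enzyme (chromosome 8, 24584136 to 24597009, minus strand of GRCm38), had the highest median level per length of the 8 genes over the 6 libraries and the widest spread, though it lay below Kmo and Haao in ANKO 3 and below every member except Tdo2 and Acmsd in control 3. It stood at 35.0, 15.4 and 5.53 CPM in ANKO 1, 2 and 3 and at 38.9, 61.9 and 1.49 CPM in control 1, 2 and 3. Control 3 was the lowest and control 2 the highest of all libraries, 41.4-fold apart, so the ANKO values fell inside the control range. The means were 18.7 ± 15.03 CPM in ANKO and 34.1 ± 30.5 CPM in control tissue (SD, n = 3 each), and edgeR estimated a log2 fold change of -0.87 (SE 1.35, 95% interval -4.44 to 2.70, adjusted p = 0.867). The estimated coefficient of variation between mice, 1.06, exceeded that of 99.5% of the features tested. At this spread even a several-fold difference between genotypes was not detectable, and the estimate ran from -0.12 without control 2 to -1.69 without ANKO 1. Tdo2 (chromosome 3, 81957090 to 81976202, minus strand), the liver-type enzyme for the same step, was low, at 2.77, 1.99 and 1.77 CPM in ANKO and 2.32, 1.76 and 2.16 CPM in control tissue. Its groups overlapped almost fully, with a log2 fold change of 0.06 (SE 0.282, 95% interval -0.59 to 0.71, adjusted p = 0.963).

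Afmid (chromosome 11, 117825924 to 117839908, plus strand), the formamidase that yields kynurenine, was measured at 3.45, 5.59 and 5.11 CPM in ANKO and 3.77, 4.13 and 3.50 CPM in control tissue. ANKO 2 and 3 lay above every control and ANKO 1 below every control. The estimate for Afmid was a log2 fold change of 0.31 (SE 0.236, 95% interval -0.23 to 0.85, adjusted p = 0.672), the largest positive estimate of the 8. Its count is uncertain, because 44.25% of its exon length is shared with Gm20708, annotated on the same strand with 0 counts in every library, and because its exons also overlap Tk1 on the opposite strand over 83 bases. The sources used here do not say how reads in shared exons were counted.

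Kmo, Kynu and Haao, the enzymes that carry kynurenine to the ring-opened intermediate, had overlapping levels in both genotypes and the same order of libraries within each. Kmo (chromosome 1, 175620381 to 175662116, plus strand) stood at 18.3, 14.6 and 25.6 CPM in ANKO 1, 2 and 3 and at 22.5, 14.5 and 22.7 CPM in control 1, 2 and 3. Kynu (chromosome 2, 43555329 to 43682715, plus strand) stood at 9.16, 6.84 and 10.7 CPM in ANKO and 8.89, 8.11 and 9.69 CPM in control tissue. Haao (chromosome 17, 83831156 to 83847963, minus strand) stood at 14.5, 10.96 and 17.2 CPM in ANKO and 17.2, 12.7 and 21.0 CPM in control tissue. In all 3 genes ANKO 2 was the lowest ANKO library and control 2 the lowest control library, while ANKO 3 was the highest ANKO library and control 3 the highest control library. Their log2 fold changes were -0.03 for Kmo (SE 0.249, 95% interval -0.62 to 0.55), 0.00198 for Kynu (SE 0.193, 95% interval -0.44 to 0.45) and -0.25 for Haao (SE 0.226, 95% interval -0.78 to 0.27). The adjusted p-values were 0.976, 0.998 and 0.729 in the same order.

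Qprt, the quinolinate phosphoribosyltransferase that commits the route to NAD (chromosome 7, 127107114 to 127122226, minus strand), was the least variable member. It stood at 4.87, 4.16 and 4.46 CPM in ANKO and 6.09, 4.79 and 4.74 CPM in control tissue. ANKO 1 lay above control 2 and control 3, so the groups overlapped. Qprt was at 0.863 of the control level, a log2 fold change of -0.21 with SE 0.193, a 95% interval of -0.66 to 0.23 and adjusted p = 0.737. Acmsd (chromosome 1, 127729413 to 127767978, plus strand), the decarboxylase that diverts the intermediate from NAD, was close to the limit of detection, with 16, 13 and 7 counts in ANKO and 28, 3 and 22 counts in control tissue. Control 2 was the lowest and control 1 the highest of the 6 libraries in counts. The estimated log2 fold change of Acmsd was -0.68 (SE 0.698, 95% interval -2.29 to 0.93, adjusted p = 0.770), so a fall of several-fold in ANKO tissue lies within the interval. The estimated coefficient of variation of Acmsd between mice, 0.531, exceeded that of 96.2% of the features tested.

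Levels between genes were set side by side as CPM per kilobase of merged exons. The medians over the 6 libraries ran from 13.8 for Ido1 through 4.31 for Kmo, 3.38 for Haao, 1.80 for Qprt, 1.47 for Kynu, 1.12 for Afmid and 0.536 for Tdo2 to 0.218 for Acmsd. The range of Ido1, 0.819 to 33.9, took in those of Kmo, Haao, Qprt, Kynu and Afmid whole. Among the rest, the ranges of Kmo and Haao overlapped, as did those of Qprt, Kynu and Afmid from each to the next. The lowest Haao value, 2.34, lay above the highest Qprt value, 2.30, and Tdo2 lay below Afmid and above Acmsd in every library. With the longest annotated transcript as the length, the mean of Kynu over the 6 libraries, 3.21, passed that of Qprt, 2.37. Nampt averaged 9.62 ± 0.314 CPM per kilobase in ANKO and 17.4 ± 0.945 in control tissue, where Qprt averaged 1.70 ± 0.136 and 1.97 ± 0.289 (SD, n = 3 each). The ratio of Nampt to Qprt per length was 5.21, 6.32 and 5.52 in ANKO 1 to 3, against 7.19, 10.2 and 9.61 in control 1 to 3. These ratios did not overlap, but Nampt, the gene removed by design, separated by itself while Qprt did not. The ratio therefore says nothing further about Qprt.

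**Figure D2:**
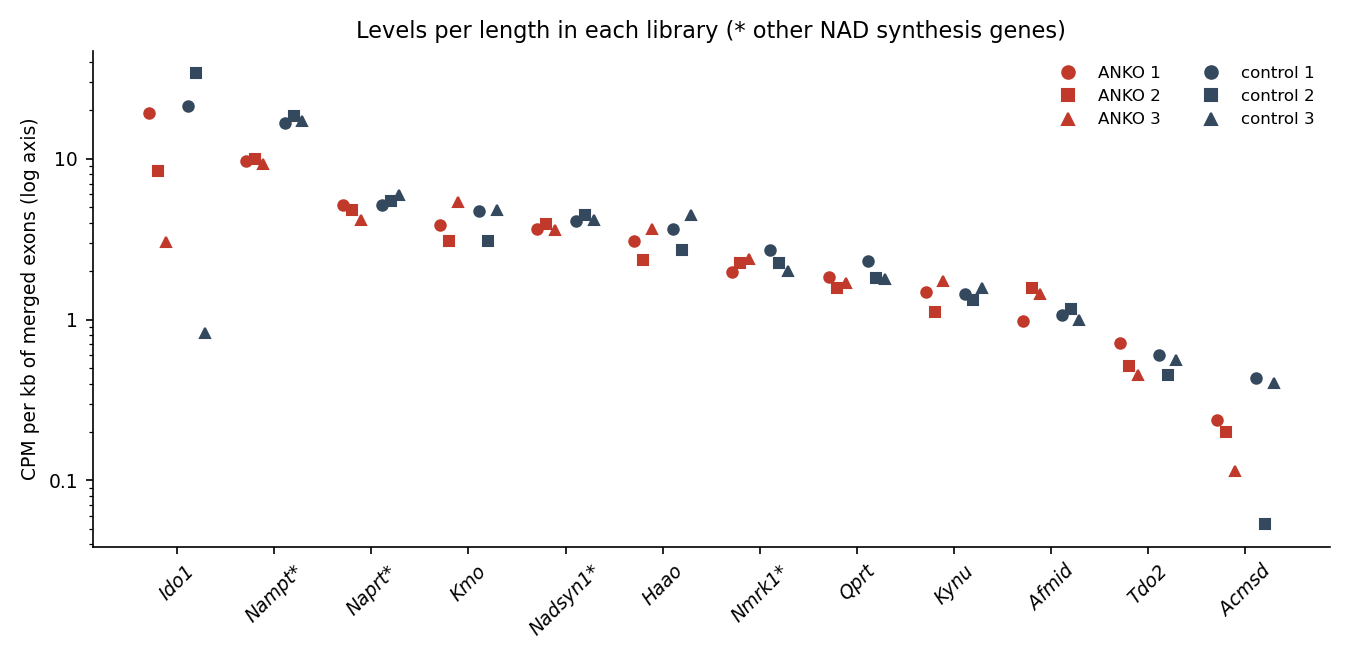
Levels in CPM per kilobase of merged exons (log axis) of the 8 kynurenine pathway genes and, marked by an asterisk, of 4 genes of other NAD routes, with each point a library. Ido1 spans the widest range, Nampt is the gene whose ANKO points all lie well below its control points, and Tdo2 and Acmsd are the lowest of the plotted genes.

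Kmo, Kynu and Haao varied together, and the promoters of Kmo and Haao are shown here (250 bases before and 50 after the annotated start, RefSeq on GRCm38.p6, 5′ to 3′ on the strand of the gene). Kynu had no promoter window to show. Capitals mark the letters GAGGAAGT, a binding motif of PU.1, a transcription factor of myeloid and B cells, in Kmo, and GCGTG, the core bound by the aryl hydrocarbon receptor, in Haao.
Kmo, chr1:175631943-175632242, plus strand: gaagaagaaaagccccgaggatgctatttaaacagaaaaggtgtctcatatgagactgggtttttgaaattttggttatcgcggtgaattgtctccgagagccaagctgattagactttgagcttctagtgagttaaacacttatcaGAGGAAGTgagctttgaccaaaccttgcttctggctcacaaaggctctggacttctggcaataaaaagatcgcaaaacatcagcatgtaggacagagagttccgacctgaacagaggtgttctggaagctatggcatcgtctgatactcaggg
Haao, chr17:83846741-83847040, minus strand: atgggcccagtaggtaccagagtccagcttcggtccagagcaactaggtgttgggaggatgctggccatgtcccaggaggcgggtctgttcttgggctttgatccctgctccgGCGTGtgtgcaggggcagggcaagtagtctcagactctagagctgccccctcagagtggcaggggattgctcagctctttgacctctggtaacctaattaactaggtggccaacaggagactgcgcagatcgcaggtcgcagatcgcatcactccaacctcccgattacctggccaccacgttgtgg
Of the 8 genes, 6 had a window in the promoter table, and both strands were searched. The windows of both Kmo and Haao lie inside the gene spans given above from GENCODE, downstream of the first annotated start there. The PU.1 letters were found in 1 of these 6 windows, that of Kmo, starting at position -103 from the annotated start, and in 3.2% of all 32851 windows. The aryl hydrocarbon receptor core was found in 3 of the 6, those of Haao, Acmsd and Tdo2, and in 32.4% of all windows. A gamma-activated site, TTCNNNGAA, was found in 1, that of Qprt, and in 8.3% of all windows. These matches are letters in a window and not measured binding.

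The levels of several members ran alongside markers of other cell types in the same libraries. Summed lymphocyte markers (7 of 7 detected in every library) stood at 373, 301 and 437 CPM in ANKO 1 to 3 and 471, 349 and 481 CPM in control 1 to 3. None of the 7 passed the test between genotypes, though all 7 estimates were below 0, with a median log2 fold change of -0.22. Haao followed the summed markers with Pearson's r = 0.969 (exact permutation p = 0.00278, two-sided) and Spearman's rho = 0.943 (exact permutation p = 0.0167), and r was 0.958 without ANKO 2 and control 3. Kmo followed them with r = 0.902 (exact permutation p = 0.0208) and rho = 0.771 (exact permutation p = 0.103), and r was 0.887 without the same libraries. In Kynu the values were r = 0.811 (exact permutation p = 0.0458) and rho = 0.714 (exact permutation p = 0.136), and r dropped to 0.529 without them. These relations were not limited to the lymphocyte list. With the dendritic cell markers Kmo and Haao each had r = 0.859 (exact permutation p = 0.0472 and 0.0389) and rho = 0.771 (exact permutation p = 0.103 for each), and r was 0.813 for Kmo and 0.969 for Haao without control 1 and control 2. The interferon gamma list holds receptor and signalling genes beside induced ones, so its sum does not measure the response alone. Its largest means were Jak1 (365 CPM), Ciita (128.5), Irf8 (113), Ifngr1 (107) and Jak2 (103), against 23.1 for Cxcl9 and 9.60 for Cxcl10. With the summed genes of this list Haao had r = 0.871 (exact permutation p = 0.0292) and rho = 0.943 (exact permutation p = 0.0167). Without ANKO 2 and control 3, r was 0.601. Kynu had r = 0.836 with the same genes (exact permutation p = 0.0375) and rho = 0.771 (exact permutation p = 0.103), with r = 0.714 without those libraries. Among the members, Kmo and Haao had r = 0.888 (exact permutation p = 0.0208) and rho = 0.886 (exact permutation p = 0.0333), with r = 0.598 without ANKO 2 and control 2. Kmo and Kynu had r = 0.88 (exact permutation p = 0.0139) and the same rho, with r = 0.696 without the same libraries. Kynu and Haao had r = 0.832 (exact permutation p = 0.0431) and again the same rho, with r = 0.859 without ANKO 2 and ANKO 3. Within a genotype there were too few mice for a value, but after each group was centred on its own mean r was 0.966 for Haao and 0.989 for Kmo with the lymphocyte markers.

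Ido1 ran alongside the summed mammary epithelium markers (8 of 8 detected in every library, none past the test). Their sum was lowest in control 3 and highest in control 2, as Ido1 was. Each of the 8 was lowest in control 3, but only Krt8, Krt18, Epcam and Cdh1 were highest in control 2. Krt8 (506 CPM) and Krt18 (362 CPM) made up much of the 1271 CPM summed there. Krt14, Krt5, Csn3 and Elf5 were higher in ANKO 1 than in control 2. The relation of Ido1 with the sum had r = 0.943 (exact permutation p = 0.00556, two-sided) and rho = 0.829 (exact permutation p = 0.0583), and r was 0.872 without control 2 and control 3. With the sum of the interferon gamma list, weighted to signalling genes, Ido1 had r = -0.675 (exact permutation p = 0.149) and rho = -0.486 (exact permutation p = 0.356). Without ANKO 2 and control 3, r was -0.832. These relations were chosen after the values were seen and belong to a family of 116, 88 between a member and a list and 28 between members. None passed adjustment over the family, the lowest adjusted value being 0.322 over 6 mice. The exact permutation p over 6 libraries, with 720 pairings, cannot go below 0.00139. A single relation could therefore not pass over a family of this size, however close, so the lack of a pass decides nothing. The part of lymphocytes, dendritic cells or mammary epithelium in the levels of these genes was not tested.

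**Figure D3:**
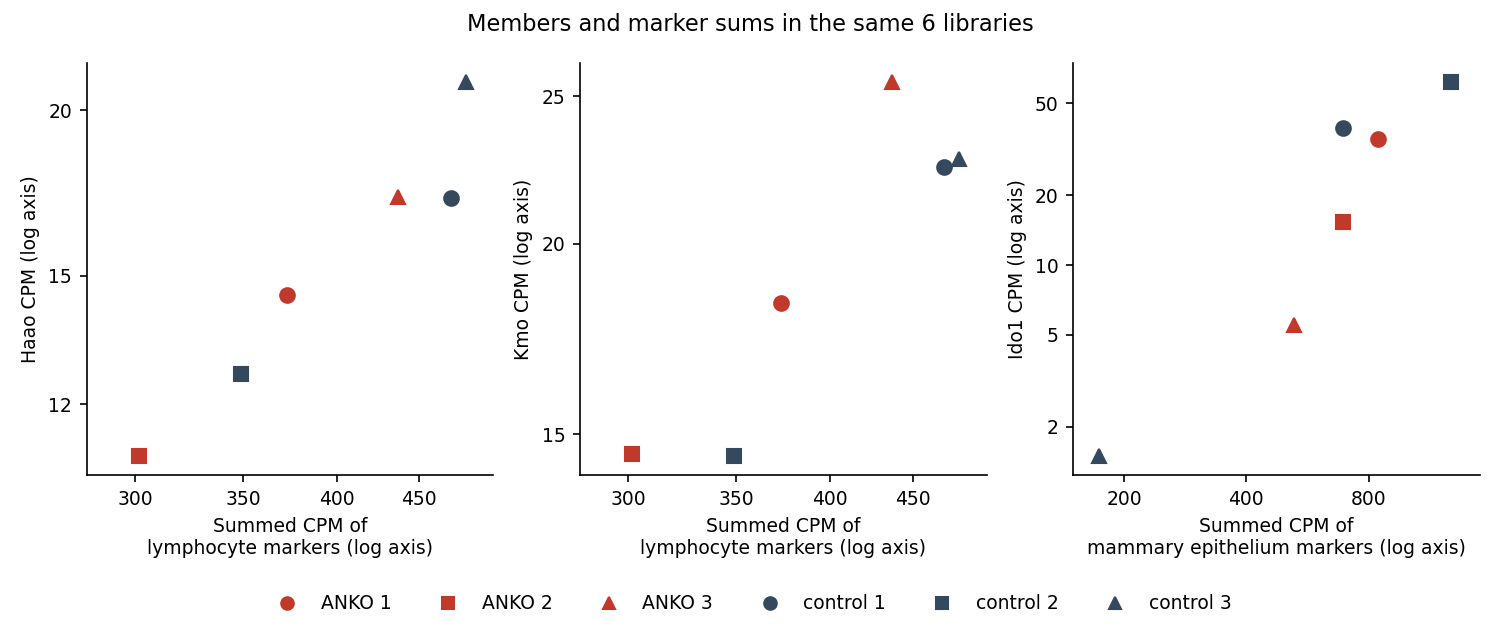
Haao and Kmo against the summed CPM of 7 lymphocyte markers, and Ido1 against the summed CPM of 8 mammary epithelium markers, with each point a library and all axes logarithmic. Low Haao and Kmo go with low lymphocyte sums in both genotypes, and control 3 is lowest in both Ido1 and the epithelial sum.

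The summed macrophage markers separated by genotype, and the values of Kmo and Kynu overlapped. The macrophage sum was 955, 1020 and 1220 CPM in ANKO 1 to 3 and 758, 777 and 658 CPM in control 1 to 3. All 12 markers were detected in every library and 3 of the 12 rose, while Cd14, Fcgr1 and Itgam overlapped between genotypes. Kmo and Kynu, known from macrophages, had r = 0.0391 and 0.0659 with this sum over the 6 mice (exact permutation p = 0.949 and 0.90), with rho = 0.0286 for each (exact permutation p = 1). Without the 2 libraries farthest in the sum, ANKO 3 and control 3, r was -0.415 for Kmo and -0.489 for Kynu. After each group was centred on its own mean, r was 0.227 for Kmo and 0.246 for Kynu. The part of macrophages in the levels of Kmo and Kynu was not tested. Endothelial sums also separated, at 632 to 719 CPM in ANKO and 745 to 875 CPM in control tissue. So did fibroblast and preadipocyte sums, at 1084 to 1379 CPM in ANKO and 837 to 1002 CPM in control tissue. No marker of these 2 lists was called. Of the 7 endothelial markers 3 did not overlap between genotypes, Cdh5, Kdr and Emcn, all lower in ANKO tissue. Of the 7 fibroblast and preadipocyte markers 2 did not overlap, Dcn and Lum, both higher in ANKO tissue. Mast cell markers also differed by genotype, with 4 of 5 tested members, Cpa3, Cma1, Mcpt4 and Tpsb2, higher in ANKO tissue and a median log2 fold change of 1.33. Their sum was 201, 204 and 148 CPM in ANKO 1 to 3 and 135, 133 and 67.0 CPM in control 1 to 3. Kit, which was not called (adjusted p = 0.743 with edgeR), made up most of it. Kit stood at 129, 137 and 82.0 CPM in ANKO 1 to 3 and 103, 108 and 42.8 CPM in control 1 to 3. Relations with the mast cell sum therefore cannot be assigned to the 4 called markers. Haao had r = -0.769 with the mast cell sum (exact permutation p = 0.0611) and rho = -0.6 (exact permutation p = 0.242). Without ANKO 2 and control 3, r was -0.0794. Ido1 had r = 0.648 (exact permutation p = 0.154) and rho = 0.0286 (exact permutation p = 1), with r = -0.0657 without the same libraries and 0.972 after each group was centred on its own mean. Dendritic cell markers, another known site of Ido1 and Kmo, summed to 134 to 149 CPM in ANKO and 126 to 162 CPM in control tissue, with none of 8 past the test.

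By the fixed rule, the 3 features most like each member across the 6 libraries in log2 CPM were named, as a description over 6 points that share libraries and genotype. For Ido1 these were Slc5a5 (r = 0.995), the sodium iodide symporter, Lrrc45 (0.989) and Syn2 (0.989). For Kmo they were Cacna1i (0.999), B3gnt5 (0.996) and Ralgps2 (0.995), and for Haao the haematopoietic GTPase Rac2 (0.993), Rasgrp3 (0.991) and Kcng2 (0.989). Kynu was most like Dbr1, Peak1os and Dleu2 (0.977 to 0.991) and Qprt most like Chd8, Smarca5 and Mterf3 (0.983 to 0.997). Afmid was most like Eif2ak4, Cox7a2l and Map4k4 (0.98 to 0.982) and Tdo2 most like Sim2, Neu2 and Rasd2 (0.988 to 0.992). With 15529 features compared over 6 libraries, high values arise for many genes, from 22 features above 0.95 for Qprt to 93 for Ido1.

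Around the pathway, the enzymes of its side branches and of the breakdown that follows Acmsd had 1 of 5 tested members past the test. An unadjusted p under 0.05 was found for 4 of the 5, against 12.9% of all features. Without overlap, ANKO lay above control in 1 and below it in 3 of the 5, against 9.19% and 10.2% of all features. The called gene was Dhtkd1, a subunit of the dehydrogenase that handles the oxoadipate formed from tryptophan and lysine, at 5.25, 9.48 and 8.13 CPM in ANKO 1 to 3 and 15.2, 19.3 and 21.4 CPM in control 1 to 3. Every ANKO value lay below every control value, and Dhtkd1 fell by 1.29 on the log2 scale (SE 0.235, adjusted p = 0.0431). The call was lost in each of the 6 fits that left out 1 library (adjusted p 0.0585 to 0.143, with log2 fold changes of -1.48 to -1.06). With all 6 libraries it was also lost under limma-voom (adjusted p = 0.0614), without robust estimation (0.0567), with the skeletal muscle covariate (0.0775) and with the lymphocyte covariate (0.131), and in all it held in 8 of 18 alternatives. Ido2, Aadat and Aldh8a1 of the same list had at most 9 counts in any library and were below the filter.

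Of 10 tested genes that use tryptophan in other ways or handle its amines, 1 rose and none fell. Maoa, the monoamine oxidase that degrades serotonin and noradrenaline, stood at 56.6, 115 and 116 CPM in ANKO 1 to 3 and 14.9, 13.9 and 14.2 CPM in control 1 to 3. The lowest ANKO value was several times the highest control value, and Maoa rose 6.68-fold, by 2.74 on the log2 scale (SE 0.291, adjusted p = 0.0133). The adjusted p passed 0.05 without ANKO 3 (0.0532), control 1 (0.0553), control 2 (0.0808) or control 3 (0.0773), while the log2 fold change stayed between 2.58 and 3.03 in all 6 such fits. With all libraries the call was lost under the replicate block (adjusted p = 0.0552) and the lymphocyte covariate (0.0883), and in all it held in 12 of 18 alternatives.

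None of 6 tested transporters of tryptophan and kynurenine passed the test, 5 of the 6 having an unadjusted p under 0.05. The smallest p was that of Slc7a5, the large neutral amino acid transporter, with 23.8 ± 5.57 CPM in ANKO and 13.6 ± 0.854 CPM in control tissue (SD, n = 3 each), a log2 fold change of 0.80 and adjusted p = 0.0724. None of 4 genes that supply the vitamin B6 and flavin cofactors of Kynu and Kmo passed, 1 having an unadjusted p under 0.05. The smallest p there was that of pyridoxal kinase, Pdxk, with 83.0 ± 11.1 and 64.7 ± 2.86 CPM in ANKO and control tissue (log2 fold change 0.36, adjusted p = 0.192). None of 7 tested genes of kynurenine sensing through the aryl hydrocarbon receptor and Gpr35 passed with edgeR, 2 having an unadjusted p under 0.05, whereas DESeq2 called 2. Cyp1b1, a target of that receptor, had the smallest p, at 46.4 ± 2.07 CPM in ANKO and 32.9 ± 3.13 CPM in control tissue (log2 fold change 0.50, adjusted p = 0.0553).

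None of 13 tested genes of interferon gamma signalling and response passed with edgeR, 4 having an unadjusted p under 0.05, and DESeq2 called 1. Cxcl10, a chemokine induced by interferon, had the smallest p, with 7.09 ± 0.732 CPM in ANKO and 12.1 ± 1.34 CPM in control tissue (log2 fold change -0.77, adjusted p = 0.0579). DESeq2 also called 2 of the transporters and none of the cofactor genes. The list of other NAD synthesis genes also held the nicotinamide methyltransferase Nnmt, which uses nicotinamide and does not make NAD. In this list 2 of 9 tested genes fell, Nnmt and Nampt, the gene removed by design, and the other 7 were not called. All 9 estimates were below 0, against 9614 of 19272 over all features tested. Their median, with Nampt and Nnmt included, was -0.52 on the log2 scale. Nnmt fell by 2.31 on the log2 scale (SE 0.126, adjusted p = 0.000869). Both calls held in each fit that left out 1 library.

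**Figure D4:**
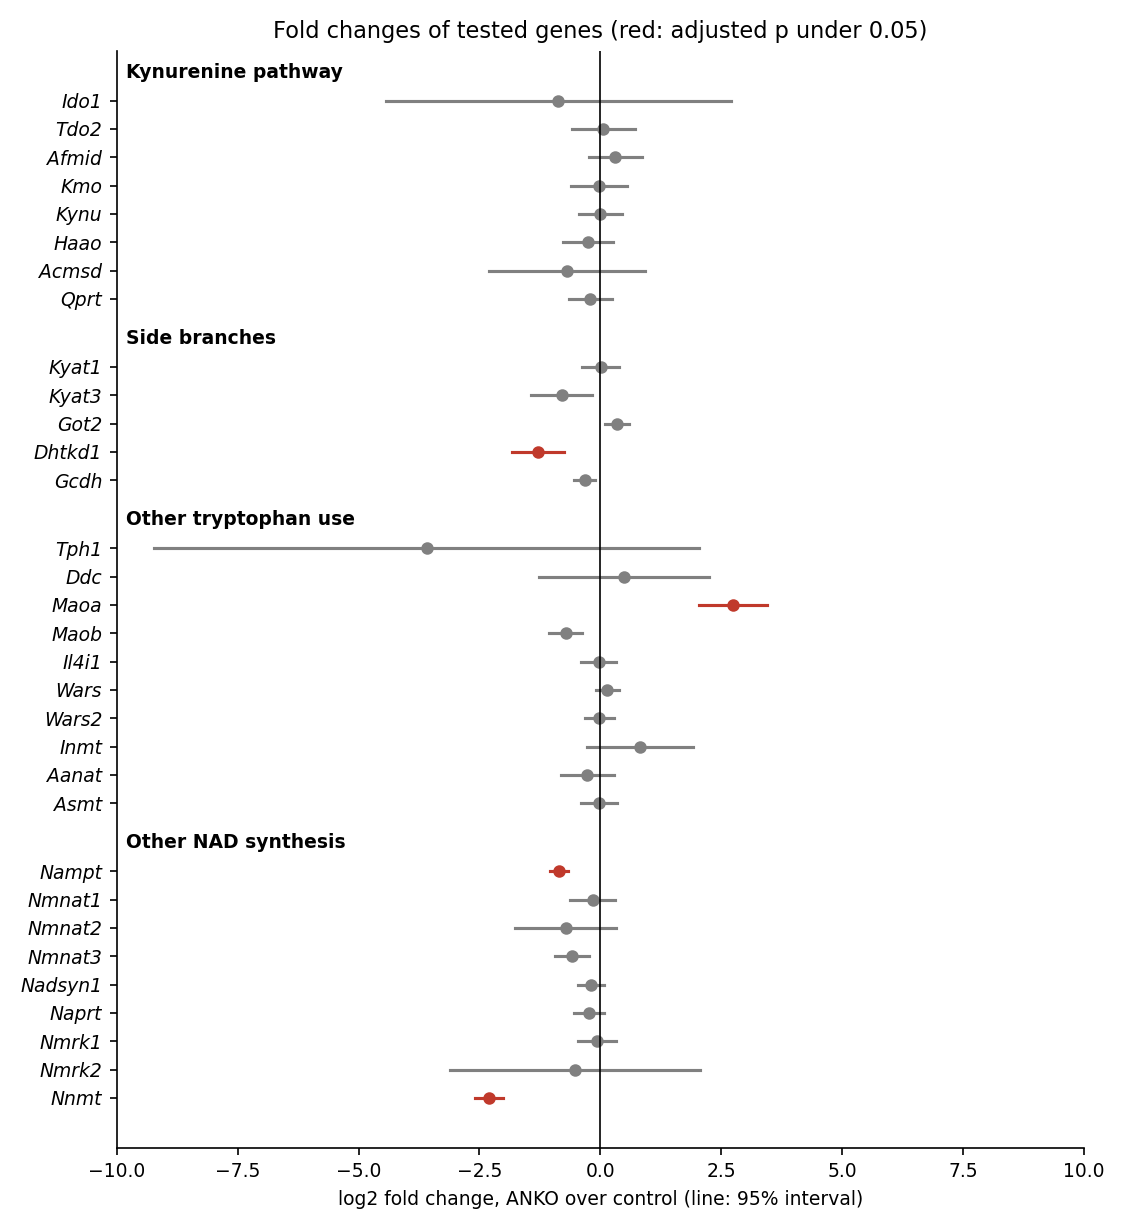
Log2 fold change of ANKO over control with its 95% interval (horizontal axis) for the kynurenine pathway genes and for tested genes of its side branches, other tryptophan use and other NAD synthesis, with red for an adjusted p under 0.05. All 8 intervals of the pathway cross 0, and the red genes are Dhtkd1, Maoa, Nampt and Nnmt. Nampt is the gene removed by design, and Nnmt, drawn under other NAD synthesis, uses nicotinamide and does not make NAD.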

How the data were processed

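Per the labels' protocols, total RNA (Qiazol, RNeasy) was depleted of ribosomal RNA before library making. The submitters' processing notes list STAR 2.0.4b, Subread, featureCounts 1.45 and the build GRCm38. For the annotation release and the strand setting, the sources used here give nothing. The authors deposited raw read counts per gene symbol, 1 column per mouse. Of 40757 lines, 329 exact repeats were removed. Positions and exon lengths come from GENCODE M21 (GRCm38).

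Features were filtered by filterByExpr (minimum count 10, minimum total 15), scaled by TMM and tested with the quasi-likelihood F test of edgeR 4.0.16 (R 4.3.3, robust = TRUE), adjusted by Benjamini-Hochberg over all features. All 8 members passed the filter. Standard errors were obtained by dividing a log2 fold change by the root of its F statistic, and 95% intervals use that error. CPM values are TMM-scaled. The fit was also run on counts simulated from its own dispersion estimates, with changes placed only in features of at least 1 CPM on average. That run cannot check the model against these data, and it placed no change in Acmsd, at 0.679 CPM on average. The members, 7 other pathway lists and 10 marker lists were chosen with earlier results of these data known. The listed gene Pdxp matched no symbol. Named genes were the members, Nampt, up to 3 called genes of smallest p in each pathway list or the 1 of smallest p, and the features most like each member of at least 1 CPM. The title of a single sample does not say more of its animal than genotype and number, so p-values measure the spread between these samples. Precision is set by these depths and by 3 mice per group. Alternatives tried were DESeq2 1.42.0, limma-voom (limma 3.58.1), scaling by upper quartile or RLE, robust = FALSE, 2 other low-count filters, repeat lines kept, the replicate number as a block, a skeletal muscle covariate and leaving out each library. Lymphocyte and mammary epithelium covariates were added after seeing the data.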

Additional observations from a re-analysis of the deposited data

How the results depend on the processing

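None of the 8 kynurenine pathway genes was called under any of 18 alternatives, and Acmsd could not be tested under the filter of 1 CPM in 3 samples and had no adjusted p from DESeq2. The number of genes called over all features, 306, became 886 with DESeq2, 464 without a low-count filter, 161 with the skeletal muscle covariate, 98 with the lymphocyte covariate and 75 to 256 when 1 library was left out. Estimates near 0 changed sign. Leaving out 1 library gave log2 fold changes of -0.28 to 0.14 for Kmo, -0.15 to 0.16 for Kynu and -0.13 to 0.19 for Tdo2, and moved the estimates of Acmsd (-1.17 to -0.29, unadjusted p = 0.0483 and adjusted p = 0.397 without control 2), Afmid (0.17 to 0.51, unadjusted p = 0.0482 and adjusted p = 0.430 without ANKO 1), Haao (-0.43 to -0.057) and Qprt (-0.27 to -0.083) without a change of sign. Kynu was at -0.023 with limma-voom, -0.016 with the replicate block and -0.044 with the muscle covariate. With the lymphocyte covariate Kmo was at 0.29 (unadjusted p = 0.041, adjusted p = 0.433, against adjusted p of 0.433 to 0.994 over all alternatives) and Haao at 0.044, and with the mammary epithelium covariate Kmo was at 0.046. With that covariate the standard error of Ido1 was 0.484 and its log2 fold change -0.75 (adjusted p = 0.604, the lowest of its alternatives). With the longest transcript as length, mean levels per kilobase were 1.83 for Afmid, 5.00 for Haao, 5.36 for Kmo, 3.21 for Kynu and 2.37 for Qprt. The cause of these shifts was not tested. Whether the replicate numbers pair the mice cannot be decided from 3 mice per group. Deviations of same-numbered mice correlated at 0.0746, -0.0333 and -0.0435, and not every mouse correlated best with its own number. With the replicate block the standard error was 0.132 for Kmo and 0.116 for Haao, against 0.249 and 0.226 without it. For Acmsd it was 0.753 with the block, against 0.698. With the replicate block 207 genes were called, none of the 8 among them, and Maoa had adjusted p = 0.0552. Acmsd had low counts, 3 to 28, and a wide spread between mice, and Ido1 had a wide spread. Their parts in the width of the intervals were not tested.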

Other observations

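Tph1, the enzyme that opens the serotonin branch of tryptophan use, was named after its values were seen. It stood at 6.47, 2.60 and 0.372 CPM in ANKO 1 to 3 and at 3.72, 110.5 and 0.824 CPM in control 1 to 3. Control 2, the library with the highest mammary epithelium sum and the highest Ido1 level, held 2193 of its counts, against at most 154 in any other library. With edgeR the log2 difference was -3.59, with SE 2.12 and adjusted p = 0.596, so no difference between genotypes was detected at this spread. Hepatocyte markers summed to 5.80 to 29.5 CPM in ANKO and 16.8 to 36.5 CPM in control tissue, with none of 3 tested members past the test.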
